A study of Acromyrmex echinatior with 18 samples.

Results

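The cytoskeleton and motor genes of the leaf-cutting ant Acromyrmex echinatior that carry RNA editing sites were 28 of the 1433 genes that the deposited table names alone at a site, with 73 of its 17229 sites. They were found by the protein name, which had to contain actin as a whole word, or tubulin, myosin, kinesin, dynein, dynactin, spectrin, ankyrin, septin, microtubule or filamin, and not kinase, phosphatase or zinc finger. Muscle myosin heavy chain (Aech_17649) and titin (Aech_07607) were left out by the rule, as were rows naming 2 genes. RNA came from heads of 3 female castes of laboratory colonies, namely small workers, large workers and gynes, the females that leave to mate and found colonies; the labels name no treatment. Each caste was sampled in 3 colonies (Ae322, Ae356 and Ae363, here A, B and C), with 50 pooled gyne heads, 50 pooled large worker heads or 200 pooled small worker heads per library. This gave 9 RNA libraries and 9 DNA libraries from the matching bodies, so that each value describes a pool of ants and not 1 animal. No source used here gives their ages. This table holds reads at edited sites and no expression values, so the head tissue could not be checked against marker genes.

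RNA editing changes single bases of an RNA after transcription. In animals the usual kind is the turning of adenosine into inosine by ADAR enzymes, which act on double-stranded RNA and leave a G in the sequence read. Actin filaments and microtubules shape cells and carry transport inside them. Myosins walk along actin, kinesins and dyneins walk along microtubules, and spectrin and ankyrin tie the membrane to the actin network. In neurons, which are packed in the insect head, microtubules and their motors carry cargo along axons.

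Most of the 28 genes had a single site (18 genes), and 5 genes with 6 or more sites held 42 of the 73. The tubulin group counted 6 genes with 15 sites, the microtubule-associated proteins 2 genes with 19 sites, the kinesins 3 genes with 11 sites and the dyneins 3 genes with 10 sites. The myosin group counted 4 genes with 8 sites, and actin-related or actin-binding proteins 5 genes with 5 sites. Spectrin and ankyrin names matched 5 genes with 5 sites. No gene matched dynactin, septin or filamin. Several of these genes do not build the cytoskeleton. Arp5 and Arp8 are actin-related subunits of a chromatin remodelling complex. CG8003, mask and CG42672 match only through their ankyrin repeats, a widespread protein-binding fold.

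**Figure D1:**
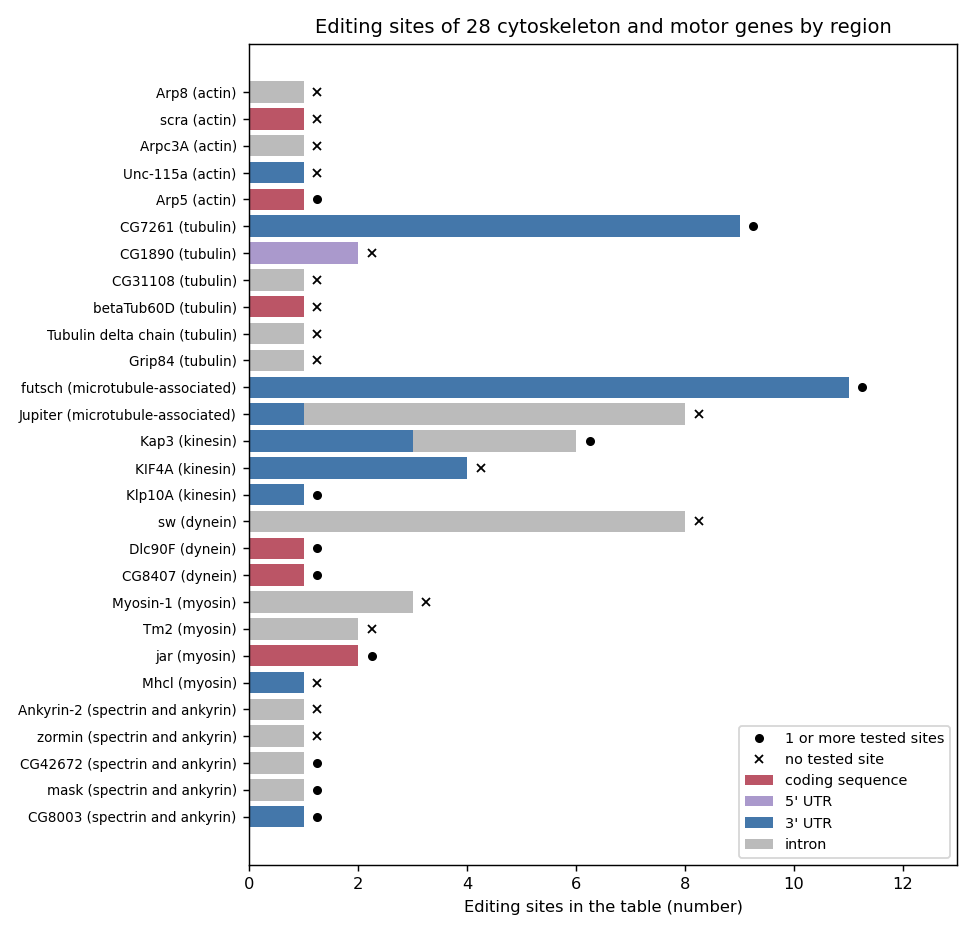
Number of editing sites (x axis) in each of the 28 genes (y axis, fly ortholog symbol or ant protein name, with its group), coloured by annotated region. A filled circle marks a gene with 1 or more tested sites and a cross a gene with none; futsch has the most sites, 11, all in the 3' UTR.

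By region, 32 of the 73 sites lay in the 3' UTR (43.8%), 32 in introns (43.8%), 7 in coding sequence (9.59%) and 2 in the 5' UTR (2.74%). Over all 6977 sites that lie in 1 gene, these shares were 45.6%, 45.0%, 4.30% and 5.13%. Transposable elements covered 24 of the 73 sites (32.9%), against 30.0% of all genic sites. A-to-G changes numbered 63 of 73 (86.3%), against 93.6% of all genic sites. The other 10 were 6 G-to-A, 2 C-to-T, 1 G-to-T and 1 T-to-C. All 10 lay in genes with 1 or 2 sites, and 8 genes had no A-to-G site at all, a count not set against all genes here. None of the genes with 3 or more sites had any other change. Neighbouring sites of a gene were often close. Of 45 such gaps, 29 were shorter than the 90 bases of a read and 8 joined adjacent bases, so that sites of 1 gene share reads and are not independent. The authors had marked 8 of the 73 sites as edited in all 9 libraries (10.96%) and 8 in 1 library only (10.96%), where the shares over all genic sites were 20.5% and 6.44%. The DNA of every library showed 0 reads with the edited base at all 73 sites, at 10 to 61 reads per site and library. As the sources used here do not give how sites were chosen, this 0 is not read as a result.

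The editing level of a site is the percentage of its RNA reads with the edited base. A site was tested when every RNA library had 10 or more reads, which 28 of the 73 sites (38.4%) and 11 of the 28 genes passed. The filter took 38.7% of all genic sites. It set no minimum on the level, and it left out 17 genes with 38 sites, most of them intronic, which are described at the end. A gene's level is the mean over its tested sites. Of the 11 tested genes, 7 had a single tested site and 6 had no A-to-G site. Reads over the 28 tested sites ranged from 1287 (gynes, colony C) to 3898 (small workers, colony B), and the median tested site had 33.5 to 111 reads per library. Every small worker library had more reads at these sites than any gyne or large worker library and drew on more heads. In comparisons with small workers, caste, depth and pool size therefore cannot be told apart.

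Editing of the tested cytoskeleton and motor genes was low, with a median level of 2.51% over the 11 genes against 4.98% over all 700. The mean level over the 11 genes was 3.45% ± 1.01 in gynes and 2.85% ± 0.621 in large workers, against 4.75% ± 0.824 in small workers (SD, n = 3 each). Over all 700 tested genes it was 7.28% ± 0.205, 8.54% ± 0.348 and 10.0% ± 0.109. With the 5 genes that have tested A-to-G sites alone, the levels were 4.65% ± 1.67, 4.19% ± 1.30 and 7.0% ± 1.42, against 10.4% ± 0.191, 12.1% ± 0.688 and 14.7% ± 0.0887 over the 434 genes with such sites. Large workers thus had the lowest mean of the 3 castes over the cytoskeleton genes and the middle one over all genes. Library by library, the 11 genes averaged 3.59%, 4.38% and 2.37% in gynes of colonies A, B and C, 2.63%, 3.55% and 2.36% in large workers and 3.81%, 5.09% and 5.35% in small workers. The gyne and large worker ranges overlapped, and so did those of gynes and small workers, while small workers lay above large workers in all 9 pairings of libraries. Summing the reads of the 28 sites put large workers above gynes, with 5.17% ± 0.201 in gynes and 5.88% ± 0.529 in large workers, against 7.17% ± 0.550 in small workers. Averaged over the 28 sites, gynes stayed above large workers, at 5.88% ± 0.904 and 5.65% ± 1.18. With a read minimum of 20, which left 6 genes, the mean over genes was higher in large workers than in gynes. These averages were not tested, because the genes were chosen with results of these data known.

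No cytoskeleton or motor gene and none of their sites passed an adjusted p of 0.05 in any comparison of castes. At the level of sites, a quasi-binomial test among the 3 castes called 0 of 28 sites, where it called 6.38% of all 5720 tested sites. It called 0 of 28 between gynes and small workers (8.23% of all sites), between gynes and large workers (0.472%) and between large and small workers (0.874%). At an unadjusted p under 0.05 there were 3 of 28 sites among the castes (20.5% of all sites), 4 between gynes and small workers (22.3%), 1 between gynes and large workers (10.6%) and 1 between large and small workers (12.3%). The 4 between gynes and small workers were all higher in small workers (20.7% of all sites), the 1 between gynes and large workers was higher in large workers (8.92%) and the 1 between large and small workers was higher in small workers (9.81%). At the level of genes, limma called 0 of 11 among the castes (1.14% of all 700 genes), 0 between gynes and small workers (2.29%), and 0 in both other contrasts, where it called 0.0% of all genes. At an unadjusted p under 0.05 it had 1 of 11 among the castes (17.0% of all genes), 1 between gynes and small workers (20.4%), 0 between gynes and large workers (8.71%) and 2 between large and small workers (11.7%). The background itself depended on the processing: with the colony as a block, or with limma on site levels, 0 of all 5720 sites passed in each of the 4 comparisons, and leaving out 1 library gave between 0 and 219. The 0 called among the 28 sites is therefore not read as a difference from other sites.

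Between gynes and small workers the level was higher in small workers in 8 of the 11 genes (72.7%), where 70.9% of all genes had that direction. Of these 8, only Kap3 and CG7261 kept a higher level in small workers both with each library centred on its mean over all genes and without any 1 library. In mask, jar, Dlc90F and Klp10A the sign turned on centring, in mask, jar and Klp10A also without 1 library, and in Arp5 and CG8003 the difference was 0 without 1 library. The share of all genes that keep their direction in this way is not given here, so the count is not read as few or many. The median difference was 0.468 percentage points over the 11 genes and 1.83 over all genes. From gynes to large workers 4 of 11 genes were higher in large workers (36.4%, against 61.4% of all genes), with a median of 0 points against 0.948. From large to small workers 8 of 11 were higher in small workers (72.7%, against 62.4%), with a median of 2.46 points against 1.03. The levels of gynes and small workers did not overlap, with small workers higher, in 2 of 11 genes (25.1% of all genes), and with small workers lower in 1 (1.14% of all genes). These were Kap3, CG7261 and futsch, the 3 genes with the most tested sites. In futsch the separation of gynes from the workers rested on 1 site, described below. Large workers lay below gynes without overlap in 1 gene, futsch (1.57% of all genes), and above in 0 (12.4%). Small workers lay above large workers without overlap in 2 genes, Kap3 and mask (15.9%), and below in 0 (2.71%).

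**Figure D2:**
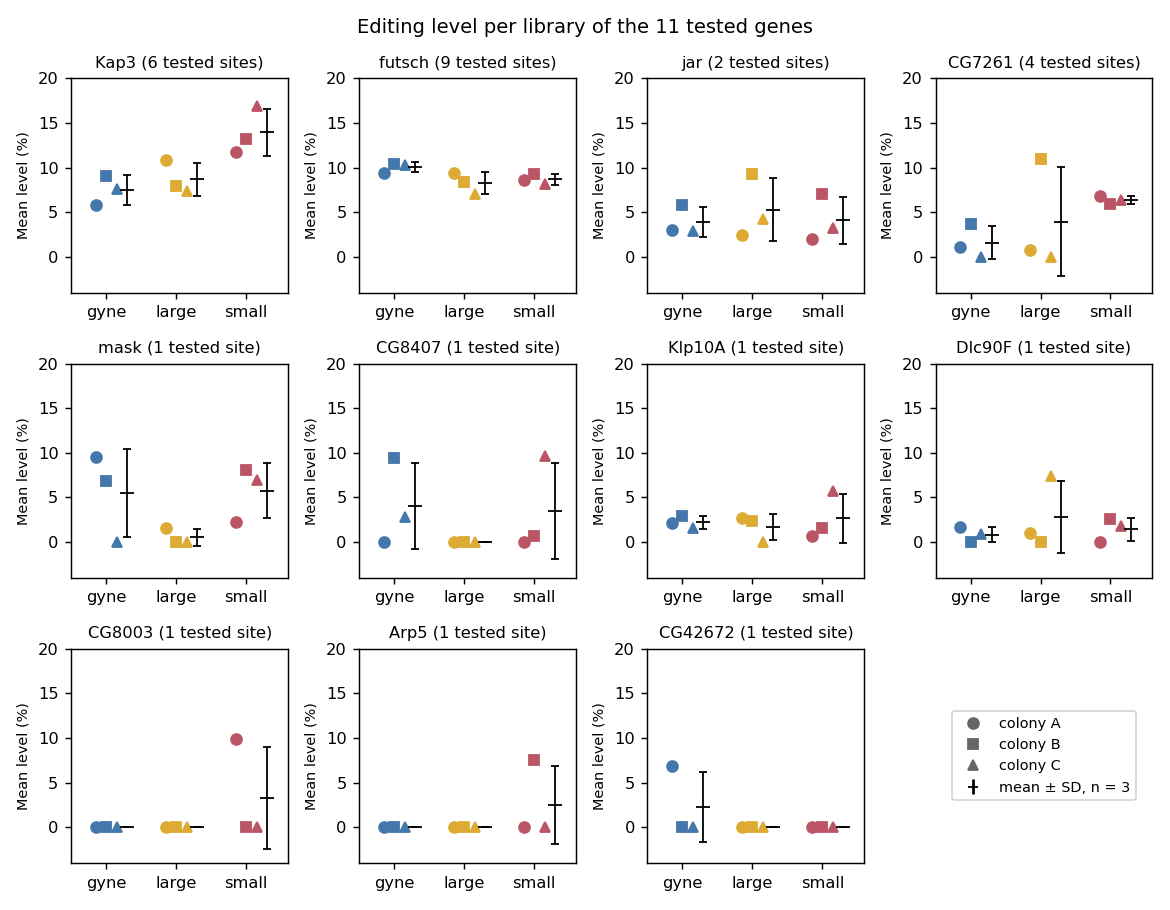
Mean editing level over a gene's tested sites (y axis, %) in each of the 9 libraries, by caste (x axis) and colony (symbol), for the 11 tested genes, with the mean ± SD of each caste (n = 3). Kap3 and CG7261 lie higher in all 3 small worker libraries than in the gyne libraries, futsch lies slightly lower, and CG8003, Arp5 and CG42672 each have edited reads in 1 library only.

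Among the motor proteins, Kap3 (Aech_17034) had the highest level of the 11 genes. It encodes the non-motor subunit of a kinesin that carries cargo along microtubules and into cilia. Its 6 sites, all A-to-G, lie within 165 bases of scaffold 656 of assembly Aech_2.0, on the plus strand, with 3 in an intron (positions 41843 to 41858) and 3 in the 3' UTR (41990 to 42007). The gene's mean level was 5.81%, 9.11% and 7.63% in gynes of colonies A, B and C, 10.8%, 7.95% and 7.40% in large workers, and 11.8%, 13.2% and 16.9% in small workers. All 3 small worker libraries lay above the other 6, and gynes and large workers overlapped. The means were 7.52% ± 1.65 in gynes and 8.73% ± 1.84 in large workers, against 13.9% ± 2.65 in small workers (SD, n = 3). Within colonies, small workers lay 5.96, 4.06 and 9.26 percentage points above gynes. This difference did not pass the test over all genes by limma (unadjusted p = 0.0154, adjusted p = 0.135; among the castes adjusted p = 0.257), and Kap3 ranked 97th of 700 genes by its p among the castes. With each library centred on its mean over all genes, its unadjusted p between gynes and small workers was 0.134.

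The 6 sites of Kap3 ranged from 2.34% to 28.8% over the 9 libraries. The last site, at 42007 in the 3' UTR, averaged 25.8% ± 2.82 in gynes and 25.9% ± 6.03 in large workers, against 34.9% ± 4.78 in small workers (SD, n = 3, 54 to 175 reads per library). The site at 41991 averaged 2.37% ± 1.0 in gynes and 6.13% ± 1.79 in large workers, against 9.19% ± 3.96 in small workers. In single libraries this was 2.20%, 1.47% and 3.45% in gynes, 5.94%, 8.0% and 4.44% in large workers and 5.98%, 7.98% and 13.6% in small workers, so that gynes overlapped with neither worker caste. The share of all tested sites with such a separation is not given here, so it is not read as rare. The site at 41991 had the smallest p of the 28 sites between gynes and small workers (unadjusted p = 0.00859, quasi-binomial adjusted p = 0.0797). Its neighbour at 41990, 1 base away, was at 4.45% ± 2.58, 5.49% ± 3.56 and 5.82% ± 2.09, with overlapping castes. The intronic site at 41843 reached 26.1% in small workers of colony C, where 18 of 69 reads were edited, and lay between 0% and 14.3% in the other 8 libraries. Without that library the Kap3 gene difference was 4.95 percentage points, the smallest of the values obtained by leaving out 1 library.

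**Figure D3:**
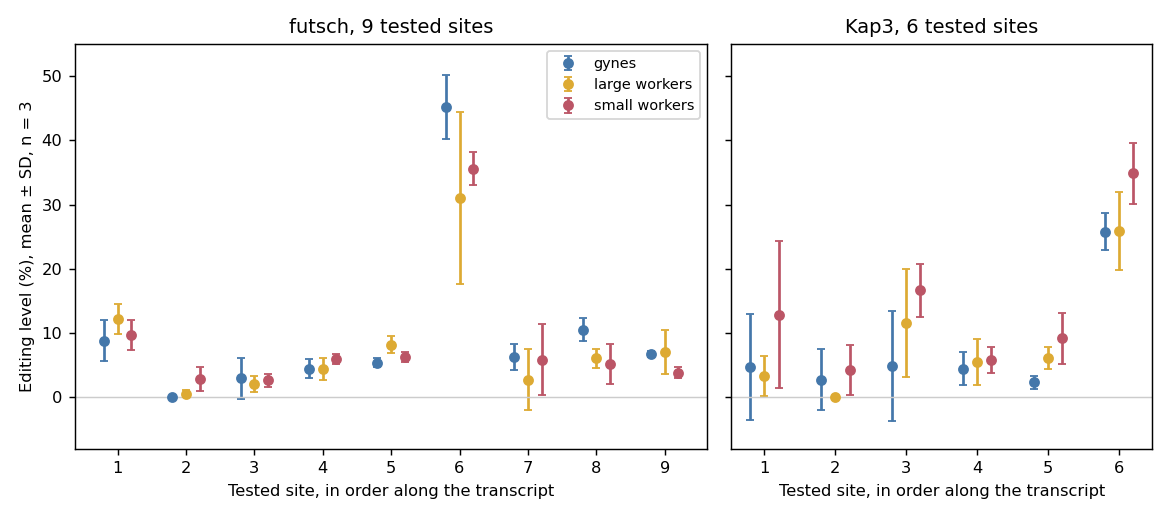
Editing level (y axis, %, mean ± SD, n = 3 per caste) at each tested site of futsch (left, 9 sites) and Kap3 (right, 6 sites), in transcript order (x axis). In both genes 1 site stands far above the rest, the sixth in each panel, at 37.3% over all libraries in futsch and 28.8% in Kap3; castes overlap at most sites.

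Of the other kinesins, Klp10A (Aech_17626), which shortens microtubules from their ends, had 1 tested site, a C-to-T change in its 3' UTR (scaffold 244, position 3533536). It was at 2.11%, 2.91% and 1.56% in gynes, 2.70%, 2.33% and 0% in large workers and 0.667%, 1.56% and 5.76% in small workers, with all castes overlapping (limma adjusted p among the castes = 0.816). The dynein light chains had 1 tested site each, both in coding sequence. CG8407 (Aech_08279), an axonemal light chain of the dyneins that beat cilia, had an A-to-G site at position 806991 of scaffold 507. Edited reads were 3 of 32 in gynes of colony B, 1 of 35 in gynes of colony C, 1 of 136 in small workers of colony B and 8 of 83 in small workers of colony C. The other 5 libraries had 0, among them all large workers with 0 of 56 reads, which allows a level of up to 5.36%. Dlc90F (Aech_09048), a light chain of cytoplasmic dynein in flies, had a T-to-C site at position 1191157 of scaffold 69, at 1.67%, 0% and 0.855% in gynes of colonies A, B and C, 1.06%, 0% and 7.41% in large workers, against 0%, 2.53% and 1.75% in small workers. The castes overlapped, and the highest value rested on 4 of 54 reads in large workers of colony C. At both light chains the largest SD within a caste exceeded the largest difference between caste means, and neither passed (limma adjusted p among the castes 0.584 for CG8407 and 0.885 for Dlc90F).

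Among the myosins only jar (Aech_07837), myosin VI, which walks towards the pointed end of actin filaments, could be tested. It had 2 adjacent coding sites on scaffold 531, positions 886384 and 886385, both G-to-A changes. The mean over both was 2.99%, 5.86% and 2.86% in gynes of colonies A, B and C, 2.46%, 9.29% and 4.20% in large workers and 2.00%, 7.08% and 3.28% in small workers. Castes overlapped (3.90% ± 1.70, 5.31% ± 3.55 and 4.12% ± 2.64, SD, n = 3; limma adjusted p = 0.902), and colony B was the highest in every caste. The site 886384, marked by the authors in all 9 libraries, was at 5.22%, 11.7% and 5.71% in gynes of colonies A, B and C and 4.92%, 12.3% and 6.67% in large workers, against 4.0%, 9.40% and 4.41% in small workers. Colony B was the highest there in each caste. The site 886385 was at 0.763%, 0% and 0% in gynes and 0%, 6.25% and 1.72% in large workers, against 0%, 4.76% and 2.14% in small workers. Its castes overlapped (quasi-binomial p between gynes and small workers 0.0347, adjusted 0.186). A comparison of colonies with caste in the model, added after these values were seen, gave an unadjusted p of 0.0220 and an adjusted p of 0.804 for jar by limma. Of all 700 genes, 4.71% had an unadjusted p under 0.05 there and 0.143% passed the adjusted one. The DNA of the bodies had 0 edited reads at both sites, at 10 to 16 reads per library. At that depth, a share in 1 DNA library as low as these RNA levels could be missed.

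The microtubule-associated protein futsch (Aech_03818), whose fly ortholog stabilises microtubules in axons and at neuromuscular synapses, had the most sites. All 11 were A-to-G changes in the 3' UTR on the minus strand of scaffold 153, between positions 1377825 and 1382960, and 8 lay in transposable elements. Over the 9 tested sites its level was 9.39%, 10.4% and 10.3% in gynes of colonies A, B and C, 9.37%, 8.43% and 7.01% in large workers and 8.59%, 9.28% and 8.16% in small workers. All 3 gyne libraries lay above the 6 worker libraries, though the nearest were separated by far less than 1 percentage point. The means were 10.0% ± 0.574 in gynes and 8.27% ± 1.19 in large workers, against 8.68% ± 0.565 in small workers (SD, n = 3), and small workers lay below gynes in each colony, with differences of -0.798, -1.12 and -2.18 points. The difference did not pass (limma unadjusted p = 0.420, adjusted p = 0.690). With each library centred on its mean over all genes, which was higher in small workers than in gynes, the unadjusted p for futsch was 0.0276 and the adjusted p 0.390 by limma. Of the 11 genes 1 had such an unadjusted p under 0.05 (10.4% of all genes) and 0 passed the adjusted one (0.143%).

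The sites of futsch also spanned a wide range. The site at 1381925, in a transposable element, was at 40.0%, 45.5% and 50.0% in gynes, 43.2%, 33.3% and 16.7% in large workers and 38.3%, 35.2% and 33.3% in small workers, with 11 to 60 reads per library. The gyne libraries lay above all 3 small worker libraries and overlapped with large workers. The difference between gynes and small workers did not pass (quasi-binomial p = 0.373, adjusted p = 0.633). How many of all tested sites separate in this way is not given here. The site at 1381925 weighs heavily in the gene's level, as the next tested site averaged 10.2% and the other 7 lay between 1.14% and 7.28% over the 9 libraries. Over the remaining tested sites alone, the levels of all castes overlapped. With reads summed over all 11 sites, the share was 7.44%, 6.86% and 7.81% in gynes and 6.82%, 6.64% and 6.37% in large workers. In small workers it was 7.12%, 7.15% and 6.68%, so that gynes and small workers overlapped. A further site at 1382135, which missed the read minimum with 7 reads in gynes of colony C, had 92 of 281 reads edited. At the site 1382868 gynes were the lowest caste. It had 0 of 209 reads edited in gynes, which allows up to 1.44%, and a level of 0.577% ± 0.538 in large workers, against 2.86% ± 1.92 in small workers (SD, n = 3, quasi-binomial adjusted p between gynes and small workers = 0.145).

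Of the proteins that fold or modify tubulin, CG7261 (Aech_09960), the tubulin-specific chaperone D, had 9 A-to-G sites within 323 bases of its 3' UTR (scaffold 237, positions 236068 to 236390), 8 of them in transposable elements. This chaperone helps to assemble the dimers of alpha and beta tubulin. Its 4 tested sites averaged 1.14%, 3.64% and 0% in gynes of colonies A, B and C, 0.833%, 11.02% and 0% in large workers and 6.83%, 5.97% and 6.42% in small workers. Small workers lay above every gyne library, and large workers of colony B lay above all other libraries. The means were 1.59% ± 1.86, 3.95% ± 6.14 and 6.41% ± 0.428 (SD, n = 3; limma adjusted p between gynes and small workers = 0.361). The site at 236068 had 0 of 70 reads edited in gynes, which allows a level of up to 4.29%, and 3 of 43, 4 of 53 and 5 of 35 in small workers. Its quasi-binomial p between gynes and small workers was 0.0172 (adjusted 0.122). With 11 to 62 reads per tested site and library, a level of a few percent rests on 1 to 6 edited reads here.

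**Figure D4:**
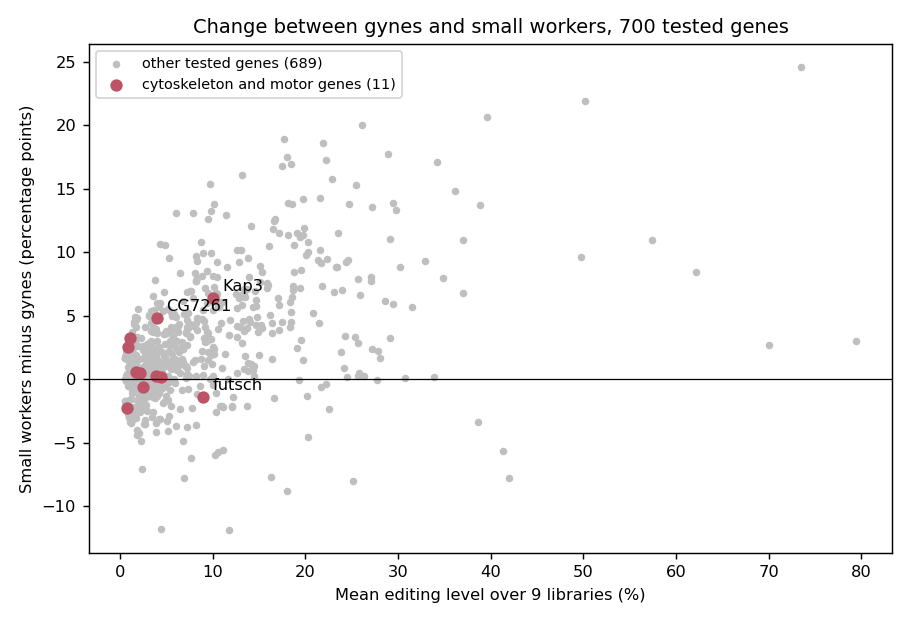
Difference between the mean level of small workers and gynes (y axis, percentage points) against the mean level over 9 libraries (x axis, %) for the 700 tested genes, with the 11 cytoskeleton and motor genes in red. All 11 have a mean level of at most 10.1%; Kap3 lies 6.43 points above 0, CG7261 4.81 above and futsch 1.37 below.

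Of the actin-related and ankyrin genes, those tested had 1 site each, and 3 of them had edited reads in a single library. Arp5 (Aech_00697) had a coding A-to-G site (scaffold 192, position 1796587) with 4 of 53 reads edited in small workers of colony B, or 7.55% (95% Wilson interval 2.97% to 17.9%), and 0 of 196 in the other 8 libraries, which allows up to 1.53%. CG8003 (Aech_04970) had a G-to-T site with 6 of 61 reads edited in small workers of colony A (9.84%, interval 4.59% to 19.8%) and 0 of 284 elsewhere, which allows up to 1.06%. CG42672 (Aech_07174), whose mammalian relative is a scaffold of neurotrophin receptors, had a C-to-T site with 3 of 44 reads edited in gynes of colony A (6.82%, interval 2.35% to 18.2%) and 0 of 460 elsewhere, which allows up to 0.652%. Sites with edited reads in 1 library made up 3 of the 28 tested sites here and 4.0% of all 2697 tested genic sites. Their caste means rest on 1 library, and leaving it out gives a difference of 0. The fourth gene, mask (Aech_06087), had an intronic G-to-A site with 9.52%, 6.90% and 0% in gynes, 1.61%, 0% and 0% in large workers and 2.22%, 8.06% and 6.98% in small workers. All small worker libraries lay above the large worker ones, which had 1 edited read among 138. The difference had an unadjusted p of 0.0471 by limma and did not pass adjustment.

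The coding sites of these genes numbered 7, of which 4 were A-to-G. Beside those of jar, CG8407, Dlc90F and Arp5, they lay in betaTub60D (Aech_12333), a beta tubulin, and scra (Aech_07262), the anillin of the ring that divides cells. At the betaTub60D site 4 of 22 reads were edited in gynes of colony B, 1 of 49 in large workers of colony C and 0 of 237 in the other 7 libraries, which allows up to 1.27%. At the scra site edited reads were 4, 2 and 3 of 10 each in small workers of colonies A, B and C, with 1 of 4 in large workers and 0 of 7 in gynes, which allows up to 42.9%. The amino acid changes were not analysed here.

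The 17 genes without a tested site had 38 sites at which at least 1 library had fewer than 10 reads. Higher levels at such sites must be read with the selection of the table in mind, since every site in it has at least 3 edited reads. Of all 73 sites, the 31 with a mean under 10 reads per library had a median level of 37.9%, the 26 with a mean from 10 to 50 reads 7.75% and the 16 with more 5.16%. The gene sw (Aech_08872), the intermediate chain by which cytoplasmic dynein binds its cargo, had 8 intronic A-to-G sites within 340 bases of scaffold 174. Summed over them, 30 of 191 reads were edited in gynes (15.7%, 95% Wilson interval 11.2% to 21.5%), 28 of 123 in large workers (22.8%, 16.3% to 30.9%) and 88 of 281 in small workers (31.3%, 26.2% to 37.0%). In single libraries the shares were 16.9%, 19.2% and 11.8% in gynes, 22.8%, 14.3% and 25.0% in large workers and 30.4%, 36.6% and 27.8% in small workers. All 3 small worker libraries lay above the other 6. The share of all genes that separate in this way on summed reads is not given here. On mean levels, small workers lay above gynes without overlap in 25.1% of the 700 tested genes. The separation in sw was not tested, and its sites take different weights in each library. The intervals cover counting error only and are too narrow where sites share reads.

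Jupiter (Aech_09809), a microtubule-binding protein of flies, had 8 A-to-G sites, 7 of them intronic, with 18 of 62 reads edited in gynes (29.0%), 40 of 119 in large workers (33.6%) and 65 of 217 in small workers (30.0%). In single libraries these shares were 15.4%, 30.0% and 33.3% in gynes, 44.7%, 27.6% and 25.6% in large workers, against 24.7%, 27.5% and 37.7% in small workers, with all castes overlapping. KIF4A (Aech_07683), a kinesin that binds chromosomes, had 4 A-to-G sites within 26 bases of its 3' UTR, with 12 of 96 reads edited in gynes (12.5%), 10 of 86 in large workers (11.6%) and 39 of 268 in small workers (14.6%). The intervals of the 3 castes overlapped in both genes. Myosin-1 (Aech_02573) had 3 intronic A-to-G sites with 39 of 48 reads edited (81.3%). Single intronic sites with few reads also stood at high levels in Ankyrin-2 (13 of 15 reads), which ties membrane proteins to spectrin, in Grip84 (9 of 11), part of the complex that starts new microtubules, in CG31108 (9 of 14), an enzyme that adds glutamate chains to tubulin, and in Arp8 (22 of 36).

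**Figure D5:**
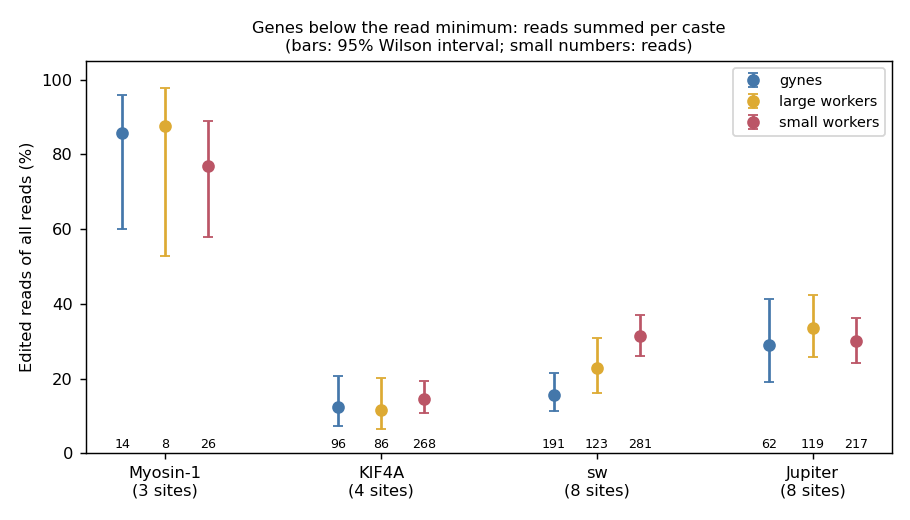
Share of edited reads (y axis, %) with reads summed over a gene's sites and the 3 libraries of a caste, for the genes with 3 or more sites and none tested; bars are 95% Wilson intervals for counting error only and the small numbers give the reads. In sw the share is 15.7% in gynes and 31.3% in small workers; in Myosin-1, KIF4A and Jupiter the intervals of the castes overlap.

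The remaining genes had 1 or 2 sites. Tm2 (Aech_10678), a tropomyosin, the protein that lies along actin in muscle, matched only because its name ends in myosin. It had 2 intronic sites with 27 of 80 reads edited. In the delta tubulin gene (Aech_10704), whose product sits in centrioles, 12 of 78 reads were edited, and in zormin (Aech_07608), a muscle protein in flies, 17 of 112. The actin-binding gene Unc-115a (Aech_01477), known from axon guidance in flies, had 21 of 161 reads edited at a 3' UTR site, with 12.1%, 14.6% and 12.7% in gynes, large workers and small workers. CG1890 (Aech_05611), the tubulin-specific chaperone A, had 2 adjacent G-to-A sites in its 5' UTR with 26 of 462 reads edited. Mhcl (Aech_04366), named myosin-XVIIIa, had a G-to-A site with 3 of 19 reads edited in gynes of colony C and 0 of 64 elsewhere, which allows up to 4.69%. Arpc3A (Aech_07086), a subunit of the complex that branches actin filaments, had 4 of 6 reads edited in large workers of colony C and only 2 reads elsewhere.

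Other genes of actin and microtubule dynamics were taken from a list of 64 name words, such as cofilin, coronin and talin. It matched 23 genes with 68 sites, of which 14 genes with 36 sites were tested. It includes titin and, through the words RAC and CDC42, the kinases Akt1 and Ack. Limma called 0 of the 14 genes in each of the 4 comparisons, and at an unadjusted p under 0.05 there were 0 among the castes (17.0% of all genes), 1 between gynes and small workers (20.4%), 2 between gynes and large workers (8.71%) and 1 between large and small workers (11.7%). The quasi-binomial test called 2 of the 36 sites among the castes (6.38% of all sites), 1 between gynes and small workers (8.23%), 1 between gynes and large workers (0.472%) and 1 between large and small workers (0.874%). In Msp-300 (Aech_17863), a nesprin that ties nuclei to the cytoskeleton, a 3' UTR site differed among the castes with 28.1% ± 19.5 in gynes and 27.6% ± 4.58 in large workers, against 56.4% ± 4.21 in small workers (quasi-binomial adjusted p = 0.0335, n = 3 libraries a caste). A coding G-to-A site of titin was called among the castes and between large workers and both other castes, with a dispersion of its own of 13.2 against the 1.88 that the test used. With the replicate block or with limma on site levels, 0 of the 5720 sites passed in any comparison, these included.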

How the data were processed

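Each cell of the table, per the file headers, holds the authors' read counts of the reference and edited base at 1 site in the DNA or RNA of 1 library, a packed format other than plain numbers, and shows whether the authors marked it as edited; positions are in assembly Aech_2.0. Alignment used BWA 0.5.9-r16, per the submitters' processing notes. How sites were chosen is not given in the sources used here. RNA libraries kept strand, per the labels' protocols.

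The 5720 sites with 10 or more reads in all 9 RNA libraries were compared by quasi-binomial logistic regression (R 4.3.3), with dispersions moderated by squeezeVar of limma 3.58.1, which gave 1 shared value of 1.88. The 700 genes were compared by limma on arcsine-square-root mean levels. P-values were adjusted over the whole table (Benjamini-Hochberg). Both tests were also run on simulated reads with the same spread at every site and no colony effect, which cannot show how they behave where spreads differ between sites. Python 3.11.15, with pandas 2.3.3 and SciPy 1.17.1, made the tables, and matplotlib 3.10.9 the figures. Without molecular identifiers, intervals and limits (3 counts of the total where the share is 0) cover counting error only.

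A replicate letter stands for a colony, which pairs libraries across castes. Deviations from caste means had a median correlation of 0.0257 within colonies and -0.00669 between colonies. Between replicates of a caste, the chi-square per degree of freedom was 1.73 to 2.08, above sampling noise.

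The genes and lists were chosen with earlier results of these data known. Values in every library are given for the 6 genes with the smallest p among castes, the 4 with the highest level, the 4 with the most sites and the largest fall, and for tested coding sites (as edited reads where most libraries had 0); further genes and sites were named after their values were seen. Alternatives were read minimums of 5 and 20, the colony as a block, limma on site levels, robust moderation, levels relative to each library's overall editing, A-to-G changes alone, summed reads, and leaving out each library. No genome was used here, so no sequence is shown. Of the other cytoskeleton genes, 1 called site is not reported here.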

Additional observations from a re-analysis of the deposited data

How the results depend on the processing

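No cytoskeleton or motor gene or site passed under any alternative run, but the counts over the whole table that serve as background moved. Where nothing in the whole table passed, none of these genes or sites could pass. Fewer of them were tested in some runs: 5 genes and 21 sites with A-to-G changes alone, and 6 genes and 16 sites at a minimum of 20 reads. In the order among the castes, gynes against small workers, gynes against large workers and large against small workers, 365, 471, 27 and 50 sites passed. With the replicate block, which pairs castes by colony, all 4 were 0 (751, 1003, 452 and 536 at an unadjusted p under 0.05). Fitting the arcsine-square-root levels by limma also gave 0 in all 4 (785, 922, 514 and 517 unadjusted). Relative to each library's overall shift they were 72, 89, 6 and 8. Leaving out 1 library gave 0 to 61, 52 to 219, 0 to 2 and 0 to 0. For genes the counts were 8, 16, 0 and 0 (61 and 82 unadjusted in the last pair). With the replicate block they were 0 in all 4 (101, 132, 62 and 74 unadjusted). With A-to-G changes alone, 20 genes passed among the castes, 59 between gynes and small workers and 2 between large and small workers. A read minimum of 20 gave 4 and 25 in the first pair of comparisons, and a minimum of 5 gave 0 among the castes and 1 between large and small workers. Summed reads gave 3 among the castes. Centring on the mean over genes gave 0 and 1. Leaving out 1 library gave 0 to 14, 0 to 41, 0 to 1 and 0 to 1. The mean level over the tested genes was 3.45% for gynes, 2.85% for large workers and 4.75% for small workers. With A-to-G changes alone it was 4.65%, 4.19% and 7.0%, over sites 5.88%, 5.65% and 7.67%, and over summed reads 5.17%, 5.88% and 7.17%. A minimum of 5 reads, with 13 genes, gave 4.65% in gynes, which brought them nearer to small workers. A minimum of 20, with 6 genes, gave 4.30% in large workers, which put them above gynes. Small workers stayed the highest caste at both minimums. Leaving out 1 library gave 2.98% to 3.98%, 2.49% to 3.09% and 4.45% to 5.22%. The difference of small workers from gynes turned sign in centred arcsine-square-root units for mask (-0.00757), jar (-0.0477), Dlc90F (-0.0258) and Klp10A (-0.0471). Without 1 library it ranged from -2.46 to 2.31 percentage points in mask, -1.27 to 1.27 in jar, -3.71 to 2.03 in CG8407 and -1.08 to 1.47 in Klp10A. The cause of these moves was not tested. With the median tested site at 33.5 reads in the shallowest libraries, levels of a few percent rest on single reads.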
